A study of Glycine max with 12 samples.

Results

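Urease is the nickel enzyme that splits urea into ammonia and CO2, and so returns the nitrogen of urea to amino acid synthesis. Soybean is known for carrying a urease of the developing embryo, Eu1, which accumulates in seed far above what urea recycling is known to need, and a ubiquitous urease, Eu4, which is the enzyme that recycles urea in leaves and other tissues. Both apoenzymes need the same accessory proteins to receive their nickel. The genes described are the embryo urease Eu1 (Glyma.05G146000, on chromosome 5 by its ID) and the ubiquitous urease Eu4 (Glyma.11G248700, on chromosome 11 by its ID). They were chosen by gene ID, not by a measured value, though with earlier results of these data known. They are 2 of the 56044 gene IDs counted. The counts do not come with sequences, exon structures or coordinates, so none are given, and the link between each ID and its urease name was taken as stated when the genes were chosen.

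RNA-seq read counts were examined in 12 libraries of field-grown soybean, all labelled as seed, each from the seeds of 3 to 5 plants. The wild type was the cultivar Thorne. The Gm20 single mutant and the Gm20/Gm10 double mutant are edited lines from a study of the gene model behind a major seed protein locus and of its paralog; the labels give no IDs for the edited genes, whose counts were not examined here. Each of the 3 genotypes had 2 libraries labelled R5, the name of the stage at which seeds begin to fill, and 2 labelled V5, which names a vegetative stage that precedes flowering. The labels do not say how many independent edited lines stand behind each mutant and give no age or treatment. Nothing in them states whether both libraries of a group came from separate plots, so p-values measure only the spread between these libraries, which may be technical.

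The libraries labelled R5 held 26966329 to 34626177 counts and those labelled V5 20410270 to 21066989, and the column headers of the R5 and V5 files follow different naming schemes, so stage label, depth and naming scheme cannot be told apart. The labelled tissue was checked with 3 marker lists, whose links from ID to product come from background knowledge of the soybean gene models. The 12 IDs listed as seed storage globulins, the main proteins of filling seed, summed to 0 to 0.26 CPM (the count scaled to its library's total) in the libraries labelled R5, where 7 of the 12 had no count in any library, and to 8990 to 240000 CPM in those labelled V5. The 2 IDs listed as vegetative storage proteins summed to 9150 to 32700 CPM at R5 and 0.77 to 15.5 CPM at V5. The 6 IDs listed as Rubisco small subunit or Rubisco activase, proteins of green tissue, summed to 3030 to 22000 CPM at R5 and 190 to 719 CPM at V5. The markers that define filling seed were thus at or near 0 in every library labelled R5, against the label, and high in those labelled V5. What led to this was not tested, and R5 and V5 are used below only as labels. The single mutant V5 replicate 2 stood apart within its set, with 8990 CPM of storage globulins against 120000 to 240000 CPM in the other 5. Among the R5 libraries, replicate 1 of the double mutant and replicate 2 of the single mutant were alike and apart from the other 4, with 22000 and 21700 CPM on the Rubisco list against 3030 to 6460 CPM.

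**Figure D1:**
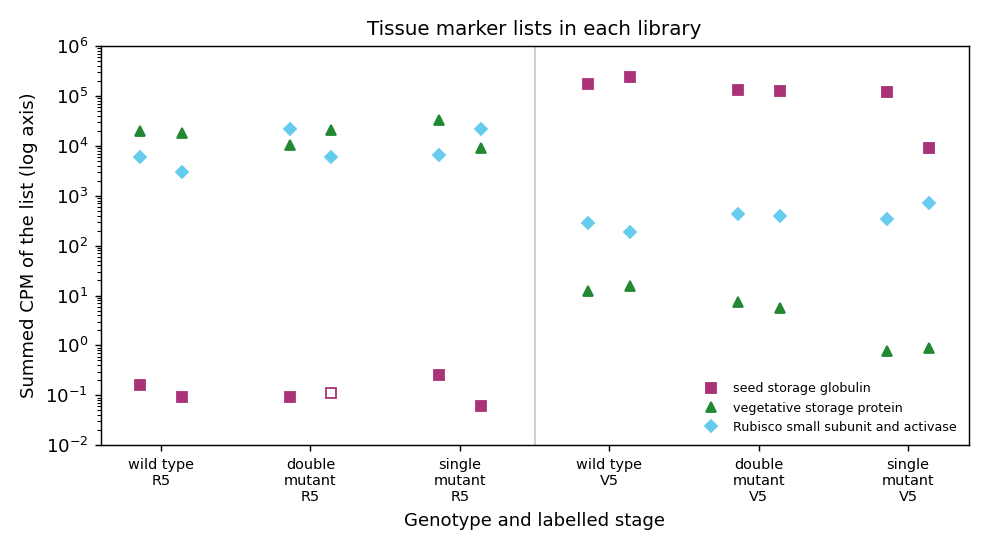
Summed CPM (log axis) of 3 marker lists in each of the 12 libraries, grouped by genotype and labelled stage, with 1 point per list and library and an open square at 3 counts where a list had none. The storage globulins lie between 8990 and 240000 CPM in the libraries labelled V5 and at or below 0.26 CPM in those labelled R5, and both other lists lie higher at R5.

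The embryo urease Eu1 was abundant in every library labelled V5 and close to absent from every library labelled R5. At R5 it had 1 and 0 counts in the wild-type libraries, 0 and 1 in the double mutant and 4 and 0 in the single mutant. Those are 6 counts in all 6 libraries together, and the highest single value was 0.116 CPM (95% exact binomial interval 0.0315 to 0.296). In the 3 libraries with no count, the floor of 3 counts stood at 0.0908 to 0.0934 CPM. At V5 the wild type had 27950 and 25969 counts, which is 1369 and 1266 CPM. The double mutant had 21899 and 22021 counts at V5, or 1056 and 1055 CPM, and was the tightest pair. The single mutant had 29689 and 11258 counts at V5, or 1428 and 534 CPM, so that its replicates held both the highest and the lowest V5 level. The lowest V5 library thus lay far above the highest R5 library, and the R5 and V5 sets did not overlap in any genotype. The share of all genes whose R5 and V5 sets do not overlap was not counted. Without molecular identifiers, such intervals and floors describe counting error and nothing else.

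Pooled over libraries, Eu1 was 35500 times as high in CPM at V5 as at R5, with a 95% exact interval of 16300 to 96600 for counting error. Of the 6 R5 counts, 4 lay in the single mutant replicate 1, and without that library the ratio was 87100 (24100 to 719000). By genotype this ratio was 83000 in wild type (interval 14900 to 3280000), and for the double mutant it was 63400 (11400 to 2500000), each R5 pair having 1 count in all. In the single mutant, with 4 counts at R5, it was 16600 (6460 to 60800). The 3 intervals overlap, and their width comes from the few R5 counts. In a fit over all 12 libraries the log2 fold change of Eu1, R5 minus V5 and averaged over genotypes, was -15.66 (SE 0.83), with an adjusted p of 2.94e-06 in edgeR's quasi-likelihood test. Fitted values against counts near 0 depend on the prior count and are no bound. Eu1 passed the filter on low counts only through its V5 libraries, so a difference in this test was built into passing it. In the same fit 29.4% of the 38559 genes tested were called lower at R5, so the call alone does not set Eu1 apart. A fitted change as low as Eu1's or lower was seen in 47 genes, Eu1 included. This rank rests on R5 counts near 0 and is only a description. In bulk RNA, fewer cells of a type and less RNA per cell cannot be told apart, and this holds for each level given here.

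**Figure D2:**
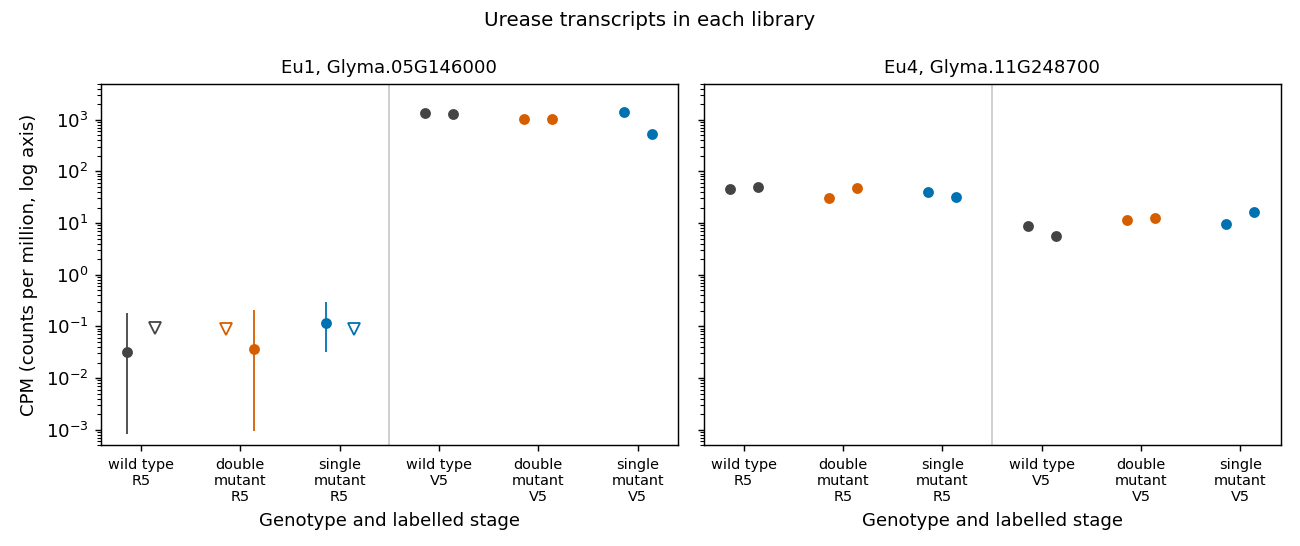
CPM (log axis) of Eu1 (left) and Eu4 (right) in each of the 12 libraries by genotype and labelled stage, as points with 95% exact binomial intervals, and with an open triangle at 3 counts where no read was counted. Eu1 lies between 534 and 1428 CPM at V5 and at or below 0.116 CPM at R5, while Eu4 lies between 5.6 and 16 CPM at V5 and between 30.2 and 50.6 CPM at R5.

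The ubiquitous urease Eu4 was detected in all 12 libraries and moved in the opposite direction, with a far smaller change. At R5 the wild type had 1426 and 1625 counts, or 46.2 and 50.6 CPM. The double mutant had 997 and 1316 counts at R5, or 30.2 and 48.8 CPM. The single mutant had 1365 and 1071 counts at R5, or 39.4 and 32.4 CPM. The lowest 2 of these values belonged to the pair of R5 libraries that stood apart on the Rubisco list, with 30.2 and 32.4 CPM against 39.4 to 50.6 CPM in the other 4, and the part of that difference in the Eu4 values was not tested. At V5 the wild type had 179 and 115 counts of Eu4, or 8.77 and 5.6 CPM, and the intervals of these replicates, 7.53 to 10.2 and 4.63 to 6.73 CPM, did not overlap. The double mutant had 240 and 264 counts at V5, or 11.6 and 12.7 CPM. The single mutant had 199 and 338 counts at V5, or 9.57 and 16 CPM. Every V5 library lay below every R5 library, and the share of all genes for which the sets separate was not counted.

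Averaged over genotypes, Eu4 was higher at R5 than at V5 by 1.5 on the log2 scale (SE 0.14, edgeR adjusted p = 4.22e-05), in 6 of 6 libraries. In this fit 34.2% of all genes tested were called higher at R5, and 21.8% had a fitted change as high as Eu4's or higher, so the change of Eu4 lay within the common range of these sets. The median change of all genes was 0.08 after TMM scaling and 0.56 with library totals alone, and Eu4 stood 1.42 above the median under both, with a fitted change of 1.98 in the second. Of the genes called, 53.7% were higher at R5 after TMM scaling and 74% with library totals. Within wild type the Eu4 change was 1.96 (SE 0.26, edgeR adjusted p = 0.000949). There 37.8% of the 38559 genes tested were called in either direction, 8040 of them higher at R5. For the double mutant the Eu4 change was 1.32 (SE 0.25, edgeR adjusted p = 0.00447), with 37.4% called and 8155 genes higher. For the single mutant it was 1.21 (SE 0.25, edgeR adjusted p = 0.00603), with 41.9% called and 8346 genes higher. The Eu4 call in the single mutant was lost in limma with quality weights (1.2, adjusted p = 0.17). It was also lost in an edgeR fit of its 4 libraries alone (1.21, adjusted p = 0.123). For Eu1, where passing the filter fixed the call within each genotype as well, the fitted log2 change was -16.71 (SE 1.48) in wild type, -15.92 (SE 1.46) for the double mutant and -14.36 (SE 1.35) for the single mutant. Each hung on 1 R5 library with counts. It was -18.59 without wild-type replicate 1, -18.01 without double mutant replicate 2 and -17.84 without single mutant replicate 1.

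**Figure D3:**
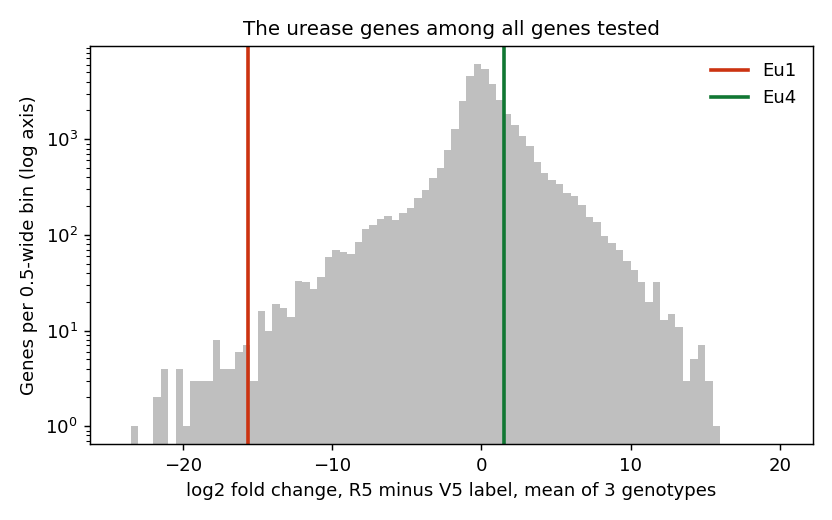
Histogram of the log2 fold change, R5 minus V5 averaged over the 3 genotypes, for the 38559 genes tested in edgeR (0.5-wide bins, log axis of gene number), with vertical lines at Eu1 and Eu4. Eu1 at -15.66 lies in the far lower tail with 47 genes at or below it, and Eu4 at 1.5 lies in the upper shoulder with 21.8% of genes at or above it.

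The ratio of both ureases within a library does not depend on how libraries are scaled. Counts were not corrected for gene length, so the ratio is compared between libraries and is not read as the relative abundance of the genes. At V5, Eu1 had 156 and 226 counts for each Eu4 count in wild type, 91.2 and 83.4 for the double mutant and 149 and 33.3 in the single mutant. Eu1 thus made up 97.1% to 99.6% of the counts of both genes in every V5 library. At R5 its share was 0% to 0.292%, and 0.0769% over the 6 libraries (6 counts of Eu1 beside 7800 of Eu4, exact interval 0.0282% to 0.167%), with the highest share in the single mutant replicate 1 (0.292%, interval 0.0797% to 0.746%). The mean of log2((Eu1 count + 0.5)/(Eu4 count + 0.5)) was -10.3 ± 1.23 at R5 and 6.71 ± 0.97 at V5 (SD, n = 6 each). The difference of -16.98 was the most extreme among all assignments of 6 libraries to R5, with a two-sided exact permutation p of 0.00216, which is the smallest this design can give. With assignments kept within genotype the exact permutation p was 0.00926, again the smallest possible. Both p-values were fixed by the separation of the Eu1 counts already given, and add no support to it.

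**Figure D4:**
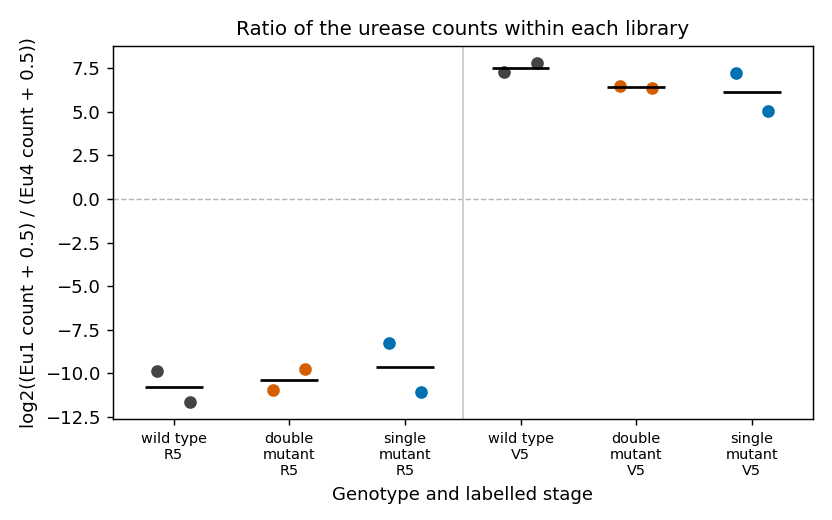
Log2 ratio of the Eu1 count to the Eu4 count, with 0.5 added to each, in each of the 12 libraries by genotype and labelled stage; bars are the means of 2 libraries. The ratio runs from -11.67 to -8.25 in the libraries labelled R5 and from 5.06 to 7.81 in those labelled V5, and the lowest V5 point is the single mutant replicate 2.

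The treatment of reads that match more than one gene is not given in the sources used here. The ureases are related genes, so the counts of both are uncertain to the extent that they share reads, which was not tested. At V5, Eu4 had 0.443 to 3 counts for each 100 Eu1 counts.

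For Eu1, differences between genotypes were small beside the stage contrast. In order of mean CPM, Eu1 at V5 was at 1318 ± 72.8 in wild type, 1056 ± 0.707 in the double mutant and 981 ± 632 for the single mutant (all SD, n = 2). The wild-type libraries lay above both double mutant libraries, and the single mutant pair spanned both other groups, though after TMM scaling it too lay below wild type. How many of all genes order the groups in this way was not counted. Eu1 at V5 differed from wild type by -0.63 on the log2 scale for the double mutant (SE 0.74, edgeR adjusted p = 1) and by -0.73 for the single mutant (SE 0.74, edgeR adjusted p = 0.711). Between the mutants it was 0.10 (SE 0.74, edgeR adjusted p = 0.952). Both comparisons with the single mutant moved with its 2 libraries. Without its replicate 2 the double mutant stood at -0.63 (SE 0.15) against wild type with an edgeR adjusted p of 0.128, the single mutant at -0.077, and the double against the single mutant at -0.55. Without its replicate 1 the single mutant stood at -2.01 against wild type (edgeR adjusted p = 0.000194), and the double mutant at 1.38 against the single mutant (adjusted p = 0.000778). Those fits called 21539 and 22196 genes in all, so the calls do not set Eu1 apart, and each rests on 1 single mutant library whose spread is taken from the other groups. At R5 the Eu1 counts of 0 to 4 did not pass the filter in the fit of the 6 R5 libraries, and genotypes were not compared there.

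In that replicate 2, Eu1 was 2.37 times lower than the median of the other 5 V5 libraries, and the storage globulin list was 14.7 times lower. Eu4 was the highest of the V5 set in it, at 16 CPM against 5.6 to 12.7 CPM, though not after TMM scaling, and the Rubisco list was at 719 against 190 to 424 CPM. The part of these differences in the urease values was not tested.

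For Eu4 the order of mean CPM at R5 was 48.4 ± 3.1 in wild type, 39.5 ± 13.2 in the double mutant and 35.9 ± 4.96 for the single mutant (all SD, n = 2), and neighbours in this order overlapped. At V5 the order was turned, with 12.8 ± 4.57 in the single mutant, 12.1 ± 0.757 in the double mutant and 7.19 ± 2.24 in wild type. There the mutants overlapped each other and both lay above wild type. Both single mutant libraries lay below both wild-type libraries at R5 and above them at V5, in CPM and after TMM scaling. With 2 libraries per group, how many of all genes separate in this way was not counted. None of these Eu4 differences passed a test. At R5, edgeR put Eu4 at -0.20 relative to wild type on the log2 scale for the double mutant (SE 0.22, adjusted p = 0.794) and at -0.38 for the single mutant (SE 0.22, adjusted p = 0.586). The first of these was 0.059 when replicate 1 of the double mutant was left out. At V5 it was 0.46 (SE 0.26, adjusted p = 1) and 0.38 (SE 0.26, adjusted p = 0.654) in edgeR. Double against single mutant, it was 0.18 (SE 0.22, adjusted p = 1) at R5, which became -0.13 without replicate 2 of the double mutant. At V5 it was 0.07 (SE 0.26, adjusted p = 0.897), which became -0.088 with library totals alone and -0.010 without replicate 1 of the single mutant.

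**Figure D5:**
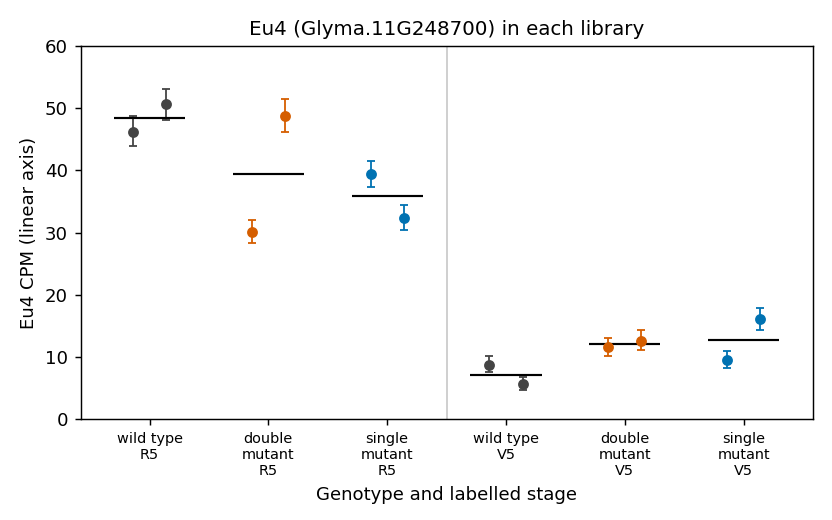
Eu4 CPM (linear axis from 0) in each of the 12 libraries by genotype and labelled stage, with 95% exact binomial intervals; bars are the means of 2 libraries. The wild-type mean is highest at R5, from 46.2 and 50.6 CPM, and lowest at V5, from 8.77 and 5.6 CPM. The double mutant replicates at R5 lie far apart, at 30.2 and 48.8 CPM, the second above wild-type replicate 1.

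The change of the stage contrast with genotype was tested directly. Mutant minus wild type, the R5 minus V5 contrast of Eu4 differed by a log2 value of -0.64 (SE 0.35) for the double mutant (edgeR adjusted p = 1). For the single mutant it differed by -0.75 (SE 0.35, edgeR adjusted p = 0.7). For Eu1 the same differences were 0.78 (SE 2.66) and 2.34 (SE 1.89), a less negative fitted contrast in both mutants (edgeR adjusted p = 1 and 0.758). They rest on 0 to 4 counts per R5 library, and the first fell to -1.31 without R5 replicate 2 of the double mutant and to -0.047 without R5 replicate 2 of wild type, and the second to -1.15 without R5 replicate 1 of the single mutant. The background for genotype was 0% in all 8 comparisons: edgeR called 0 genes in the 3 at R5 (1089, 2035 and 99 at an unadjusted p under 0.05 for double against wild type, single against wild type and double against single), 0 in the same 3 at V5 (517, 2022 and 1351) and 0 in both contrasts of stage and genotype (981 and 2645). DESeq2 called 58, 73, 0, 11, 167, 113, 16 and 134 in the same order and limma called 0 in each, and neither called a urease gene. A missed threshold with 2 libraries per group does not show that the genotypes had the same urease levels.

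Genes whose pattern over the 12 libraries was most like each urease were found by the root mean square difference of centred log2 CPM among the 38559 genes tested. For Eu1 the nearest were Glyma.10G174400 (0.314 on the log2 scale) and Glyma.20G196600 (0.392). Glyma.10G174400 had 0 to 0.0866 CPM at R5 and 693 to 934 CPM at V5. Glyma.20G196600 had no count at R5 and 534 to 1810 CPM at V5. For Eu4 the nearest were Glyma.15G269700 (0.127), with 9.77 to 16 CPM at R5 and 2.24 to 4.79 CPM at V5, and Glyma.12G020200 (0.135), with 29.5 to 42.2 CPM at R5 and 6.04 to 14.6 CPM at V5. In both, as in Eu4, the lowest R5 values lay in the pair of R5 libraries that stood apart. Both genes were picked for likeness to Eu4 over these same libraries, so the shared low pair adds nothing separate. The 12 points share their libraries and the stage contrast dominates the measure, so this is a description, and the files do not name these genes.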

How the data were processed

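The authors deposited 1 table of whole-number read counts per library for 56044 gene IDs. The submitters' processing notes name HTSeq, HISAT2 and Bowtie, without roles. Not given in the sources used here: versions, build, annotation, strand, and the handling of multiply matching reads. The main test was edgeR 4.0.16's quasi-likelihood test (R 4.3.3) on these counts after TMM scaling and filterByExpr (minimum count 10, minimum total 15). Stage contrasts used all 12 libraries (6 residual degrees of freedom) and genotype contrasts the 6 libraries of a stage (3). P-values were adjusted by Benjamini-Hochberg over all genes tested, and genes under 0.05 were called. A standard error is the log2 fold change divided by the root of its F statistic. CPM values use library totals, and log2 CPM a prior count of 2. Intervals are 95% Clopper-Pearson. Permutations were enumerated in Python 3.11.15. The fitting code was tested on simulated data.

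The genes, lists and tests were chosen with earlier results of these data known. Patterns most like each urease were to be named by the 2 smallest root mean square differences. No ID matched the 59048 reference genes (0 matches), so the 16 lists of urea and ureide pathway genes, defined by product, were empty, and 0 were tested. DESeq2 1.42.0, limma 3.58.1 (voom with sample quality weights), RLE scaling, library totals, no filter, a replicate block, other sets of libraries, other pseudocounts and each library left out were alternatives. The newer dispersion method of edgeR and fits without the pair of R5 libraries that stood apart, and count ratios with each library left out, were added after the data were seen.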

Additional observations from a re-analysis of the deposited data

How the results depend on the processing

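The mean Eu4 stage contrast was called in all 20 alternatives, at 1.41 to 1.98. That of Eu1, whose call passing the filter had fixed, ran from -16.81 to -15.12. The count ratio contrast ran from -17.38 to -15.09 in 16 alternatives. The Eu4 contrast in the single mutant missed the threshold in limma (1.2) and in the fit of 4 libraries (1.21). Leaving out 1 library at a time gave -1.31 to 2.69 and -1.15 to 4.24 for the Eu1 contrasts of stage and genotype (double and single mutant), -0.49 to 0.059 and -0.13 to 0.44 for Eu4 at R5 in the double mutant against wild type and against the single mutant, -2.01 to -0.077 and -0.55 to 1.38 for Eu1 at V5 (single mutant against wild type, double against single), and -0.010 to 0.22 for Eu4 in the latter, which was -0.088 with library totals. The cause was not tested.

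Counts of genes called for stage ran from 7016 (without V5 replicate 2) to 25310 (limma) in wild type, 6611 (without V5 replicate 1) to 21648 for the double mutant and 1040 (its 4 libraries alone) to 23468 for the single mutant. DESeq2 called up to 167 genes where edgeR called 0. When V5 replicate 1 of the single mutant was left out, edgeR called 21539 genes in it against wild type at V5, 22196 between the mutants and 9713 for stage and genotype. With the replicate block the mean contrasts were -15.71 and 1.5, and no urease call changed. Deviations of same-numbered libraries correlated at -0.728 to 0.378 over 15 pairs of groups, over 0.1 in 2, so the numbers were not taken to pair libraries. Without the single mutant V5 replicate 2, 1 of the 2 genes nearest to Eu1 and 0 of the 2 nearest to Eu4 stayed nearest.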

Other observations

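The genes numbered next to each urease on its chromosome were read after the data were seen, with 5 IDs on either side. Of the 10 around Eu1, 7 were tested for the mean stage contrast, and 5 were called lower at R5 and 0 higher, with log2 fold changes from -2.53 to 0.14 over the 7. Over all genes in this fit 29.4% were called lower and 34.2% higher. Of the 10 around Eu4, 8 were tested, with 3 lower and 2 higher at R5 and changes from -1.60 to 1.79. None of the neighbours tested came near the Eu1 change of -15.66. The ID next below Eu4, Glyma.11G248600, changed by 1.79 (edgeR adjusted p = 0.0353) at a level of at most 0.907 CPM at R5.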
